A study of Mus musculus with 4 samples.

Results

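Circular RNAs (circRNAs) of Glis3 were examined in primary articular chondrocytes of the mouse, which build joint cartilage. A circRNA is a closed loop formed when a downstream splice donor is joined back to an upstream splice acceptor, and it is measured by the reads that cross this back-splice junction. The Glis3 circRNAs were taken as every junction with both ends inside the RefSeq span of the gene (gene ID 226075, chromosome 19, 28258851 to 28680265, minus strand, 421415 bp, mm10), with a tolerance of 1 bp. This gave 39 of the 40909 circRNAs in the table, and Glis3 was chosen by its summed junction reads in these 4 libraries, so its rank and overall level are a description with no test. All 39 lay on the strand of Glis3, all lay inside the span without the tolerance as well, and 0 further junctions crossed an end of the gene. The span overlaps the noncoding genes Gm35866 and D930032P07Rik, and 0 Glis3 junctions had an end in either of them.

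The libraries fell into 2 groups of 2. Chondrocytes of passage 1 to 3 were treated with recombinant human interleukin-1β (IL-1β), a cytokine of joint inflammation, at 10 ng/ml for 24 h, and chondrocytes whose source label names no treatment served as control. The protocol text of the control libraries repeats the IL-1β treatment, so the groups rest on the source label, and no genotype, strain, sex or age is given. In both groups, ribosomal RNA had been removed and linear RNA digested with RNase R before strand-specific sequencing. Nothing in the labels tells separate cultures or animals from repeat libraries, so each p-value speaks only of the spread among these libraries, and that spread may be technical.

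Glis3 (GLI-similar 3) encodes a zinc finger transcription factor related to the GLI proteins, the effectors of Hedgehog signalling. It binds GLI-like DNA sites and can act as an activator or a repressor of transcription. It is best known for its roles in insulin-producing cells, the thyroid and the kidney, and the human GLIS3 locus has been associated with osteoarthritis. Circles are spliced from the same precursor RNA as the linear message, so a circle's reads reflect transcription of the gene, back-splicing and the stability of the loop together.

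Depth was 895774 and 980542 junction reads under IL-1β, against 1198010 and 1203855 in the controls. Circular junctions gave a poor check of the cell type. Of 20 chondrocyte marker genes 14, among them Col2a1, Acan, Sox9 and Comp, had 0 junction reads, and the summed chondrocyte marker level was 275 and 364 CPM under IL-1β, against 417 and 272 CPM in the controls (CPM is junction reads scaled to a common library size). Markers of fibroblasts summed to 104 and 66.3 CPM under IL-1β, against 144 and 217 CPM in the controls, those of endothelium to 155 and 116 under IL-1β, against 96.8 and 116 in the controls. Those of macrophages summed to 10.05 and 8.16 CPM under IL-1β, against 12.5 and 0 in the controls, and those of muscle to 0 and 0 under IL-1β, against 5.84 and 0 in the controls. A few genes carried most of some sums: Sox5 gave 936 and Sox6 375 of the 1430 chondrocyte marker reads. Flt1 gave 501 of the 509 endothelial ones. The lists also differ in length, so their sums do not rank the cell types. The part of other cells in the Glis3 values was not tested.

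Glis3 was among the main sources of circRNA in these cells. Its 39 circles carried 31721 reads, which placed it 10th of 6930 host genes, and it ranked 10 and 13 under IL-1β, against 11 and 8 in the controls. A host gene here is the gene whose span holds both ends of a circle. By mean CPM it lay between Asph, at 8326 CPM, and the zinc finger gene Zfp516, at 7206 CPM, with 7566 CPM of its own, and the next on either side were Tmeff1, at 8478 CPM, and Zfp148, at 7085 CPM. These 4 neighbours were closer to Glis3 than its own control libraries were to each other, at 6961 and 9597 CPM. The gene was less prominent by number of circles, where it was 58th.

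Reads were concentrated in a few circles. The 3 most abundant, circRNA.16320, circRNA.16321 and circRNA.16333, carried 28179 reads or 88.8% of the total. Another 7 circles with at least 200 reads added 8.01%, 12 with fewer reads but at least 20 added 2.72%, and 17 with fewer than 20 reads added 0.438%. No single circle held most of the gene's output: the leading one had 39.4% of the reads. Among 49 hosts with at least 10000 reads the median share of the leading circle was 76.9%, and 4 of them had a lower share than Glis3.

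**Figure D1:**
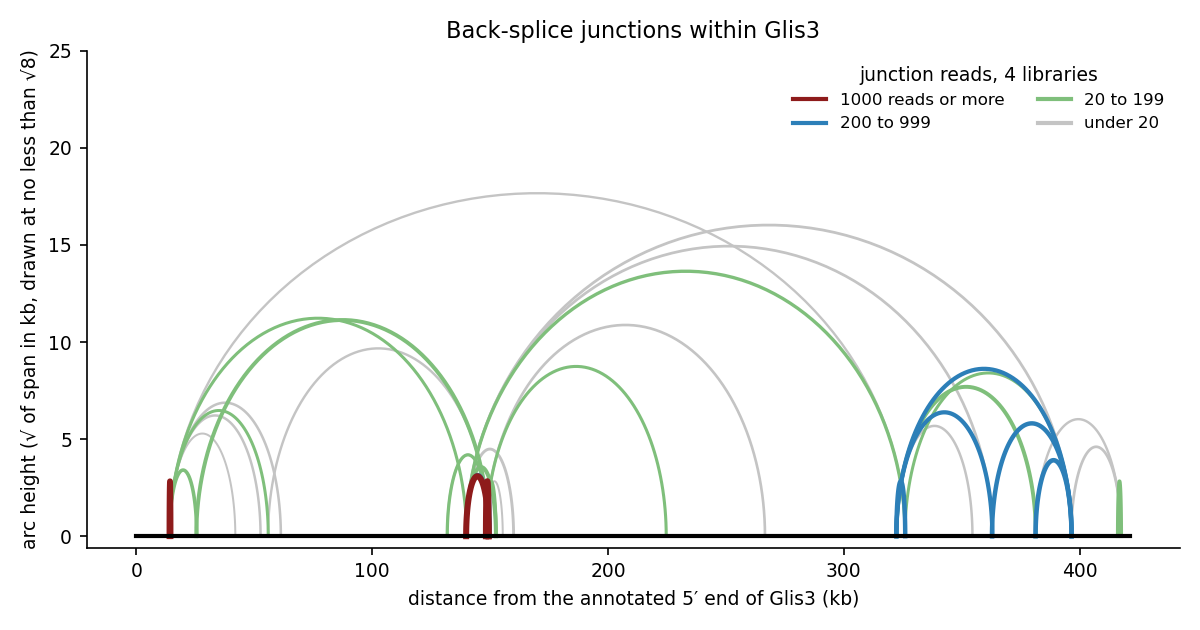
Each arc joins the ends of 1 of the 39 Glis3 back-splice junctions, placed by distance in kb from the annotated 5′ end of the gene, with arc height growing with the span and colour and width showing reads over the 4 libraries. The 3 circles with over 1000 reads lie 14029 to 14512 bp and 139857 to 149392 bp from the 5′ end, and most other arcs start or end at the sites these circles use or near the 3′ end.

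The leading circle, circRNA.16320, ran from 28530873 to 28531986, a span of 1114 nt with both ends counted. It had 2512 and 2512 reads under IL-1β, against 3004 and 4483 in the controls. The second, circRNA.16321, used the same donor at 28530873 and an acceptor 8422 nt further upstream at 28540408, and so spanned 9536 nt and enclosed the first. It had 1935 and 1974 reads under IL-1β, against 2724 and 3556 reads in the controls. Next came circRNA.16333, which lay apart from both, from 28665753 to 28666236, with a span of 484 nt and its acceptor 14029 bp from the annotated 5′ end of the gene. It had 1211 and 1127 reads under IL-1β, against 1360 and 1781 reads in the controls. For each of these circles the raw reads were highest in control 2. Its depth of 1203855 junction reads was close to the 1198010 of control 1.

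Scaled to library depth, the groups overlapped for 2 of the 3. Values are CPM with TMM factors, edgeR's correction for library composition. For circRNA.16320 they were 2907 and 2711 CPM under IL-1β, against 2707 and 3865 CPM in the controls. For circRNA.16321 they were 2239 and 2130.1 CPM under IL-1β, against 2455 and 3066 CPM in the controls. For circRNA.16333 they were 1401 and 1216 CPM under IL-1β, against 1226 and 1536 CPM in the controls. In circRNA.16320 and circRNA.16333 control 2 was the highest library and control 1 lay beside the IL-1β libraries. For circRNA.16321 both IL-1β libraries were lower than both controls, which was so for 17.2% of all 15333 circRNAs tested.

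**Figure D2:**
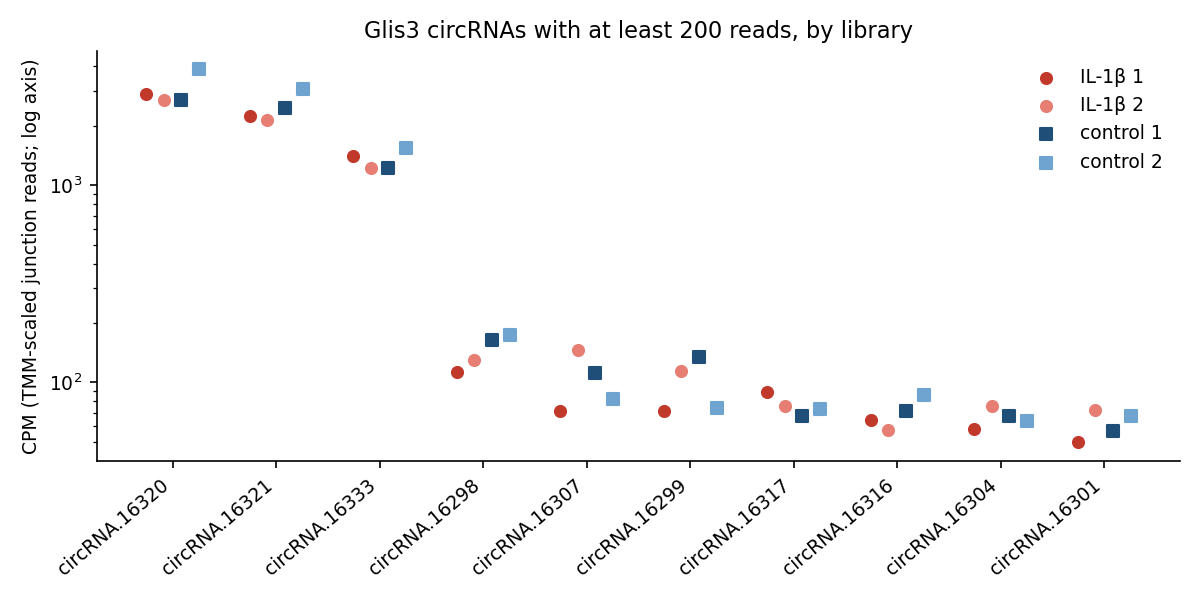
Junction reads in CPM (TMM-scaled, log axis) of the 10 Glis3 circRNAs with at least 200 reads, with 1 point for each of the 2 IL-1β libraries (circles) and the 2 control libraries (squares). A gap separates the 3 leading circles, at 1216 CPM or more in every library, from the other 7, which all lie below 200 CPM.

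The other 7 circles with at least 200 reads fell in 2 places. Of these, 5 lay in the 3′ part of the gene, with acceptors 322313 bp or more from its 5′ end. The most abundant, circRNA.16298 (28283652 to 28298946), had 98 and 121 reads under IL-1β, against 183 and 202 in the controls, or 113 and 131 CPM under IL-1β, against 165 and 174 CPM in the controls. For this circle both IL-1β libraries were lower than both controls, as for 17.2% of all circRNAs tested. Reads of the other 4 in that region varied within groups. For circRNA.16307 (28354206 to 28357952) there were 71.7 and 147 CPM under IL-1β, against 112 and 81.9 CPM in the controls. For circRNA.16299 (28283652 to 28317413) there were 71.7 and 114 CPM under IL-1β, against 135 and 74.1 CPM in the controls. In both, the lower and the higher library of a group differed more than the group means did.

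The remaining circles of the 3′ region were more even. circRNA.16304 (28317254 to 28357952) had 57.9 and 75.5 CPM under IL-1β, against 67.6 and 63.8 CPM in the controls. circRNA.16301 (28283652 to 28357952) had 49.8 and 72.3 CPM under IL-1β, against 56.8 and 67.2 CPM in the controls. Both sets of libraries overlapped. The last 2 of the 7 shared the acceptors of the leading circles but ended at a donor 394 nt further downstream, at 28530479. circRNA.16316 (to 28531986, 1508 nt) had 64.8 and 57.2 CPM under IL-1β, against 71.2 and 86.2 CPM in the controls. Here the IL-1β libraries were both lower, again as for 17.2% of all circRNAs tested. circRNA.16317 (to 28540408, 9930 nt) had 89.1 and 75.5 CPM under IL-1β, against 67.6 and 73.3 CPM in the controls, so the IL-1β libraries were both higher, which was so for 16.4% of all circRNAs tested.

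The next question was how splice sites were combined. The 39 circles used 14 acceptors and 21 donors, and they made up 39 of the 160 pairs in which one of these donors lies downstream of one of these acceptors. There were 5 acceptors and 9 donors in 2 or more circles. The acceptors at 28540408 and 28666236 were each in 8 circles and that at 28531986 in 7. These 3 acceptors took 34.0%, 17.7% and 40.7% of the Glis3 reads. On the donor side, 28530873 was in 6 circles and took 72.2% of the reads, and 28665753 took 17.3%. No junctions lay within 5 nt of each other at both ends, and the closest sites were donors 12 nt apart and acceptors 25 and 33 nt apart. Exon positions were not used here, so the ends are given by coordinate only.

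With the 4 libraries pooled, donors in the central region differed in the share of reads that they had with the nearer acceptor. At the main donor the nearer acceptor, 28531986, took 55.1% of the 22700 reads shared between it and the further acceptor, 28540408 (95% exact binomial interval 54.5 to 55.8%). At the donor 394 nt downstream the nearer acceptor took 48.4% of 595 reads (44.3 to 52.5%). This pooled gap came mainly from the IL-1β libraries, at 42.1% and 43.1% beside 56.5% and 56.0% at the main donor. In the controls the 2 donors were close, at 51.3% and 54.1% beside 52.4% and 55.8%. At the donor 3113 nt downstream, 28527760, the nearer acceptor took 22.2% of 243 reads (17.2 to 27.98%). PCR copies are not independent molecules, so these intervals reflect counting error alone. By library, the share at 28527760 was 29.8% and 20% under IL-1β, against 0% and 26.6% in the controls, below that at the main donor in each of them, and the 0 of 27 reads in control 1 allows up to 12.8%.

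The same shares were set side by side for IL-1β. At the main donor the nearer acceptor took 56.5% and 56.0% under IL-1β, against 52.4% and 55.8% in the controls. At the donor 394 nt downstream it took 42.1% and 43.1% under IL-1β, against 51.3% and 54.1% in the controls, a difference of -10.1 percentage points. At both of these donors the groups did not overlap. In the exact permutation test (two-sided, 2 against 2) p was 0.333 for each, the smallest that this design allows. At the donor 3113 nt downstream, 28527760, the groups overlapped, with a mean of 24.9% under IL-1β, against 13.3% in the controls (exact permutation p = 0.667, two-sided, 2 against 2). How often such shares separate by group in other hosts was not tested. The intervals of the single libraries at the second donor were wide, from 33.6 to 51.0% in IL-1β 1 and from 46.6 to 61.4% in control 2. These shares were computed after the values of the circles were seen.

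Spans ranged from 459 to 312031 nt. By circle Glis3 had a median span of 27944 nt, against 10570 nt over all circRNAs, and 7 of its 39 circles (17.9%) spanned at least 100000 nt, against 2.90% of all. By read the order was the other way: 58.0% of Glis3 reads came from circles under 2000 nt, against 18.1% of all reads, and the 7 long circles had 253 reads together. The long circle with the most reads was circRNA.16325 (28530873 to 28654846), with 34 and 13 reads under IL-1β, against 36 and 58 in the controls. These are descriptions of 1 gene, with no test.

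The number of Glis3 circles read was 22 and 21 under IL-1β, against 24 and 23 in the controls. Over the whole series 17649 and 19317 circRNAs were read under IL-1β, against 20662 and 17960 in the controls, so there the groups overlapped. The Glis3 difference of -2 had p = 0.333 in the exact permutation test (two-sided, 2 against 2), the smallest it allows. The Glis3 counts were the same when every library was thinned to 895774 reads, but this check could hardly have come out otherwise. Every Glis3 circle read in a control had at least 5 reads there, and 1 remaining read kept it in the count. The part of depth in the difference was therefore not tested. There were 15 circles (38.5%) read in all 4 libraries, against 16.8% of all circRNAs, and these carried 98.9% of the Glis3 reads. Another 19 (48.7%) had reads in just 1 library, against 58.6% of all, and carried 0.583% of the reads, with between 3 and 24 reads each. Of these 19, 8 were read in an IL-1β library and 11 in a control.

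Circles limited to 1 group numbered 20 of 39 (51.3%), against 63.7% of all circRNAs, with 8 in IL-1β libraries and 12 in controls. Of these, 0 had reads in both IL-1β libraries, where 2.45% of all circRNAs were read in both and in no control. Just 1 (2.56%) had reads in both controls, where 2.72% of all circRNAs were read in both and in no IL-1β library. This was circRNA.16300 (28283652 to 28354316), with 0 and 0 reads under IL-1β, against 17 and 5 in the controls. A floor of 3 reads per library corresponds to 3.47 CPM for IL-1β 1 and 3.24 CPM for IL-1β 2. The control mean of this circle, 9.82 CPM, was 2.93-fold that floor. This ratio rests on control 1: it was 1.29-fold without control 1 and 4.57-fold without control 2. The circle was named for its 0 reads under IL-1β, so these ratios describe it and are no test of a decrease. Its log2 change in edgeR was -6.33 ± 3.91 (SE), with an adjusted p of 0.886. circRNA.16326, with 24 reads in control 1 only, and circRNA.16328, with 22 in control 2 only, show that counts of this size can be missing from the other library of the same group.

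The main comparison was the level of Glis3 circles under IL-1β against control. Summed over all 39 circles, Glis3 had 6309 and 6389 reads under IL-1β, against 8110 and 10913 in the controls. In TMM-scaled CPM this was 7069.5 and 6634 under IL-1β, against 6961 and 9597 in the controls, or 6852 ± 308 under IL-1β, against 8279 ± 1864 in the controls (mean ± SD, n = 2 each). IL-1β and control overlapped, and control 2 stood above the other 3 libraries. In bulk RNA, fewer cells of a type and less RNA per cell cannot be told apart. The log2 change was -0.27 ± 0.18 (SE), with an adjusted p of 0.882 over 4879 hosts in edgeR's quasi-likelihood test. In that test 0 hosts (0%) passed an adjusted p of 0.05 and 222 (4.55%) an unadjusted p of 0.05, and for Glis3 the unadjusted p was 0.161. DESeq2, run as an alternative, passed 55 hosts (1.13%), and Glis3 was not among them, with an adjusted p of 0.634.

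The size of this difference depended on the controls and on the scale. Without control 2 the log2 change was -0.02 and without control 1 it was -0.45, with an adjusted p of 0.357 in edgeR. As a share of all junction reads Glis3 made up 0.704% and 0.652% under IL-1β, against 0.677% and 0.907% in the controls, with 95% exact binomial intervals, for counting error only, of 0.662 to 0.692% and 0.890 to 0.924% in the controls. On the authors' deposited SRPBM, a scale of reads per depth, the sum was 529 and 476 under IL-1β, against 687 and 677 in the controls. There the groups did not overlap and the controls were close together (exact permutation p = 0.333, two-sided, the smallest for 2 against 2). Over all circRNAs, however, SRPBM summed to 75093 and 73067 under IL-1β, against 101537 and 74734 in the controls, so control 1 was raised on this scale as a whole. With library depth taken from SRPBM the log2 change was -0.44 ± 0.24 with an adjusted p of 0.977 in edgeR, while the median over all tested hosts was -0.24, against -0.03 with TMM. Relative to that median the Glis3 difference was of similar size on both scales.

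**Figure D3:**
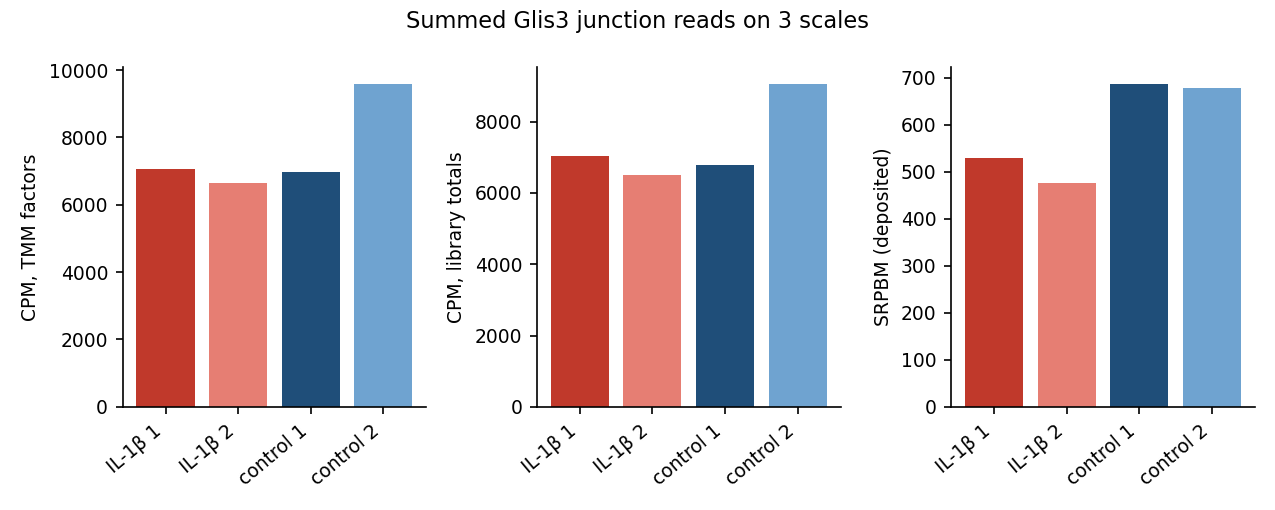
Summed junction reads of all Glis3 circles in each library (bars; IL-1β left, control right) as CPM with TMM factors, as CPM of library totals and as deposited SRPBM, each axis starting at 0. On both CPM scales only control 2 stands apart, while on SRPBM both IL-1β libraries (529 and 476) are below both controls (687 and 677).

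No single Glis3 circle passed the test. Of the 39 circles, 22 had at least 20 reads over the libraries and were tested, and 0 of these had an adjusted p under 0.05 in edgeR, where 3 of 15333 circRNAs (0.0196%) did. Their adjusted p lay between 0.886 and 1.000, and 0 had an unadjusted p under 0.05, against 528 (3.44%) of all. DESeq2 called 0 of the 22 and gave 6 of them no adjusted p, and it called 106 (0.691%) of all. The log2 change was positive in 7 and negative in 15 of the 22, and 51.8% of all tested circRNAs were negative. The IL-1β libraries were both lower than the controls for 5 of the 22 (22.7%) and both higher for 1 (4.55%), beside 17.2% and 16.4% of all tested circRNAs, so the lower count is near the background. Some of the 22 passed the read minimum through 1 group only, so these counts describe the tested circles and support no shift of the whole.

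Among circles with at least 200 reads the log2 changes lay between -0.47 and 0.22. The lowest unadjusted p on the lower side, 0.149, belonged to circRNA.16321, whose log2 change was -0.34 ± 0.21 (SE). For circRNA.16320 it was -0.23 ± 0.23 and for circRNA.16333 -0.08 ± 0.22, each within about 1 SE of 0. Both turned slightly positive without control 2, at 0.06 and 0.10. The largest decrease among the 10, not past the test, was in circRNA.16298 with -0.47 ± 0.31, from means of 122 ± 12.1 CPM under IL-1β, against 170 ± 6.53 CPM in the controls. The lowest p on the higher side belonged to circRNA.16317, with 0.22 ± 0.41.

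**Figure D4:**
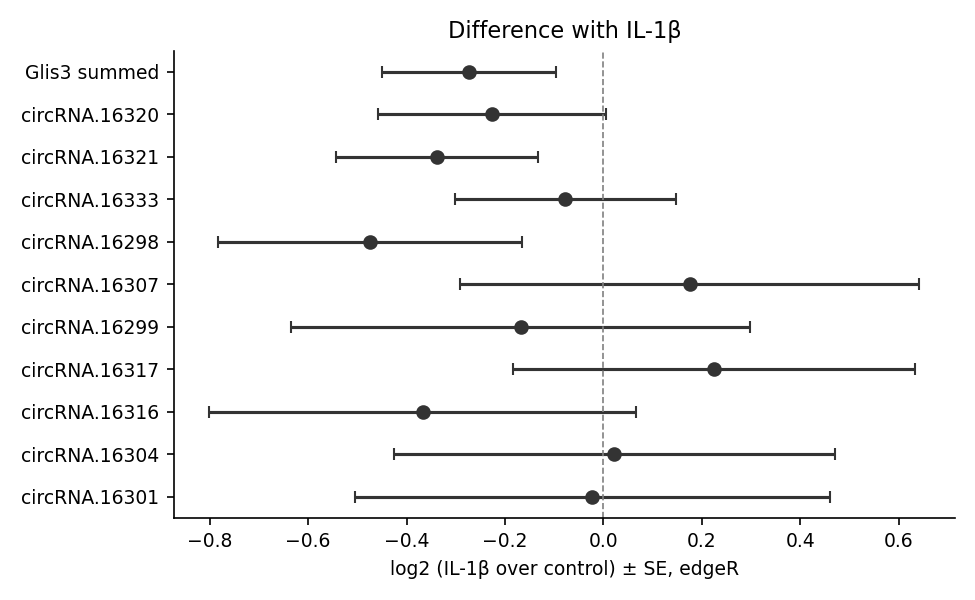
Log2 change (IL-1β over control, points) with its standard error (bars) from edgeR for the summed Glis3 output and for the 10 circles with at least 200 reads. All 11 points lie between -0.47 and 0.22, and 0 of them passed an adjusted p of 0.05.

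The division of Glis3 reads between its circles showed no difference past the test. The leading circle took 39.8% and 39.3% of Glis3 reads under IL-1β, against 37.0% and 41.1% in the controls. The mean difference of 0.507 percentage points was smaller than the gap between the controls (exact permutation p = 1, two-sided, 2 against 2). It was -1.51 without control 1 and 2.53 without control 2. circRNA.16321 took 30.7% and 30.9% under IL-1β, against 33.6% and 32.6% in the controls. circRNA.16333 took 19.2% and 17.6% under IL-1β, against 16.8% and 16.3% in the controls. For both of these the groups did not overlap, as was so, lower or higher under IL-1β, for 16.7% and 16.4% of 13210 circles set against their hosts. Together the leading 3 took 89.7% and 87.9% under IL-1β, against 87.4% and 90.0% in the controls.

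The usage test asks whether a circle changed relative to the output of its own host. Over all hosts with at least 2 tested circles, 9 of 13473 circles (0.0668%) passed an adjusted p of 0.05 in edgeR, and 0 of the 22 Glis3 circles did. At an unadjusted p of 0.05 there were 395 (2.93%) of all and 0 of Glis3, whose lowest was 0.0999. The log2 usage change was 0.01 ± 0.49 (SE) for circRNA.16320, -0.10 ± 0.49 for circRNA.16321 and 0.16 ± 0.49 for circRNA.16333. These standard errors are wide, so a moderate change in usage would not have been detectable.

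**Figure D5:**
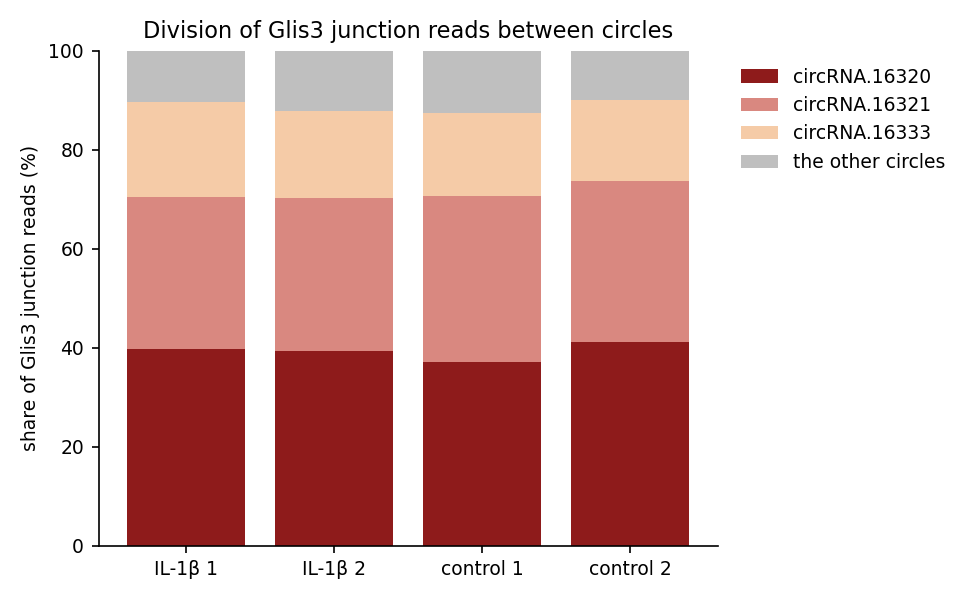
Share of Glis3 junction reads (%) taken by the 3 leading circles and by the other 36 together in each library, with the IL-1β libraries left of the controls. The 3 leading circles took between 87.4 and 90.0% in every library, in the same order.

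Some other hosts followed a like pattern over the 4 libraries. Likeness was the root mean square difference in centred log2 CPM over 4 libraries, among 812 other hosts with at least 1000 reads. The nearest were Hmgxb3 (0.0033), Pcca (0.0315), Zfp516 (0.0419), Tmem248 (0.0423) and Zfyve1 (0.0493), where the median host stood at 0.292. Zfp516 had 6983 and 6135 CPM under IL-1β, against 6428 and 9279 CPM in the controls. In all, 34 of the 812 hosts (4.19%) lay within 0.1 of Glis3.

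In the zinc finger family of Glis3, 31721 of 34050 junction reads were from Glis3 itself. Of 11 GLI, GLIS and ZIC genes 7, among them the Hedgehog effectors Gli1 and Gli2, had 0 junction reads. Gli3, the effector that acts mainly as a repressor, had 10 circles with 454 and 458 reads under IL-1β, against 643 and 521 in the controls. Its log2 change was -0.04 ± 0.23 (SE). Glis1 had 1 circle with 28 and 30 reads under IL-1β, against 42 and 37 in the controls. Glis2 had 1 circle with 3 and 29 reads under IL-1β, against 39 and 45 in the controls. The log2 change was negative in all 4 tested members, Glis3 included (median -0.20), beside 2539 of all 4879 tested hosts. It was -0.13 ± 0.76 for Glis1 and -1.1 ± 1.1 for Glis2, so these signs show no shift of the family. In edgeR 0 of 4 passed an adjusted p of 0.05.

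Genes of the Hedgehog pathway and known partners of GLI or GLIS proteins showed no common direction. Of 48 genes 38 had circles and 32 were tested, 15 with a positive and 17 with a negative log2 change. Their median was -0.06, against -0.03 over all 4879 tested hosts, of which 2340 were positive and 2539 negative. None of the 32 passed an adjusted p of 0.05, and 1 (3.12%) had an unadjusted p under 0.05 in edgeR, no more than the 4.55% of all tested hosts. This was the co-receptor gene Cdon, at 24.4 ± 5.12 CPM under IL-1β, against 70.4 ± 6.12 CPM in the controls (n = 2 each), a log2 change of -1.53 ± 0.61. Sufu, which restrains GLI proteins and binds GLIS3, was at 467 ± 0.804 CPM under IL-1β, against 494 ± 155 CPM in the controls. The ubiquitin ligase gene Itch, whose product targets GLIS3, was at 92.6 ± 4.16 CPM under IL-1β, against 91.0 ± 30.4 CPM in the controls.

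Transcription factors of chondrocytes were likewise split. Of 67 genes 40 had circles and 36 were tested, with 19 positive and 17 negative log2 changes, a median of 0.03 and 0 past an adjusted p of 0.05 in edgeR. There were 2 (5.56%) with an unadjusted p under 0.05, near the 4.55% of all tested hosts. Nfia, a nuclear factor I gene, was at 106 ± 11.04 CPM under IL-1β, against 210 ± 44.3 CPM in the controls, and Setbp1 at 8733 ± 920 CPM under IL-1β, against 13800 ± 3292 CPM in the controls. Among the partners of Sox9 in cartilage, Sox5 was at 233 ± 38.5 CPM under IL-1β, against 217 ± 96.4 CPM in the controls, and Sox6 at 67.3 ± 1.71 CPM under IL-1β, against 108 ± 27.6 CPM in the controls.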

How the data were processed

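Per the file headers, the deposited values are counts of back-splice junction reads by circRNA. The same deposited tables hold SRPBM, a signal scaled to depth. In each library 1 SRPBM stood for a fixed number of reads, 11.9 and 13.4 under IL-1β, against 11.8 and 16.1 in the controls. The submitters' processing notes name mm10 and Bowtie2. The sources used here do not give the circRNA caller. The table of all samples held the same counts as the 4 single-library tables.

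Junction ends are printed as deposited and were placed in RefSeq genes of GRCm38.p6, the same assembly. A circle's host was the only coding gene holding both its ends, or the only other gene where no coding gene did. Features reaching 20 reads in total were fitted by the quasi-likelihood test of edgeR 4.0.16 (R 4.3.3), with TMM scaling, no covariate and Benjamini-Hochberg adjustment over all tested features at 0.05. The standard error of a log2 change is its size over the root of F. CPM of circles and of hosts come from separate fits. Circle usage was tested with edgeR's diffSpliceDGE. The scripts were tested on simulated data. Python 3.11.15 and scipy 1.17.1 gave the other values. Marker and list sums use library totals.

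Glis3, its circles and the gene lists were chosen with earlier results of these data known. The text names every circle with at least 200 reads, the tested circle with the lowest p in each direction, the circle read in both libraries of 1 group only with the most reads, the 5 hosts most like Glis3, the 2 hosts on either side of it by level, and members of the lists with at least 200 reads. Glis1, Glis2, the long circle and the circles read in 1 control were named after their values were seen. Alternatives were DESeq2 1.42.0, a replicate block, other read minimums and scalings, junctions within 5 nt summed, and each library left out.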

Additional observations from a re-analysis of the deposited data

How the results depend on the processing

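The summed Glis3 output had a negative log2 change under every alternative run, from -0.45 to -0.02, and passed an adjusted p of 0.05 in none of them. With the replicate block it was -0.26. Whether the replicate numbers pair the libraries is unknown. Deviations of same-numbered libraries from their group means correlated at 0.032 over 2209 hosts. With 2 libraries per group the opposite matching gives the mirror value, -0.032, so this contrast cannot decide the question. With each library left out in turn it was -0.45 to -0.02, without the leading circle -0.28, and with library totals -0.23. The number of Glis3 circles past the test was 0 in every fit, and so was the number past the usage test. Counts over all features moved more. In place of 3 circRNAs there were 61 with the replicate block, 66 with a minimum of 10 reads, 61 with no filter beyond 1 read, 0 with 50 reads, 0 with junctions within 5 nt summed, 106 with DESeq2, and 0 to 4 with each library left out. In place of 0 hosts there were 20 with the replicate block, 6 with 10 reads, 12 with no filter, 55 with DESeq2, and 0 to 2 with each library left out. In place of 9 circles past the usage test there were 25, 22, 23, 5 and 1 with the replicate block, 10 reads, no filter, 50 reads and summed junctions, and 6 to 18 with each library left out. With each library left out in turn, the difference in the share of the leading circle was -1.51 to 2.53 percentage points and that in the Glis3 share of junction reads -0.229 to 0.000987. The difference in the number of Glis3 circles was -4.5 with at least 5 reads in a library.

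Signs reversed for 6 named circles, none of which passed the test. With each library left out in turn the log2 change was -0.49 to 0.0567 for circRNA.16320 and -0.26 to 0.0982 for circRNA.16333, positive only without control replicate 2. It was -0.45 to 0.58 for circRNA.16307 and -0.20 to 0.18 for circRNA.16304, negative without IL-1β replicate 2 and, at -0.0281 and -0.0152, without control replicate 2. It was -0.56 to 0.30 for circRNA.16299, positive without control replicate 1 and, at 0.11, without IL-1β replicate 1. It was -0.34 to 0.20 for circRNA.16301, positive without IL-1β replicate 1 and, at 0.11, without control replicate 2. With the SRPBM depth it was -0.0940 for circRNA.16307 and -0.22 for circRNA.16304, and with a minimum of 10 reads -0.0041 for circRNA.16304. The cause was not tested.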
